A study of Mus musculus with 9 samples.

Results

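The 36 genes described here make, load or repair DNA, and they were taken by their symbols from a deposited expression table of 31167 genes. They fall into the sliding clamp and its loader (Pcna and Rfc1 to Rfc5), the replicative polymerases and primase (Pola1, Pola2, Prim1, Prim2, Pold1, Pold2, Pole and Pole2) and the enzymes of deoxynucleotide supply (Rrm1, Rrm2, Tyms, Tk1 and Dut). The others are the flap nuclease Fen1 and the ligase Lig1, the single-strand binding complex (Rpa1, Rpa2 and Rpa3), the GINS complex (Gins1 to Gins4), chromatin assembly and DNA methylation genes (Chaf1a, Chaf1b, Uhrf1 and Dnmt1) and repair genes (Brca1, Brca2, Exo1 and Msh6). RNA was sequenced from mouse primary renal tubular epithelial cells of C57BL/6 kidney in 9 libraries, 3 per group. The Sham group carried no treatment label. The H/R group was kept without glucose at 1.0% oxygen for 6 h and was then returned to complete medium for 18 h, a culture model of ischemia and reperfusion. The EGR1OV group was transfected at partial confluence, by a lipid reagent, with a plasmid that overexpresses Egr1, a zinc finger transcription factor, from a CMV promoter. Only the H/R libraries carry that treatment in their labels, but the protocol shared by all libraries describes transfection and then H/R. No label says whether the EGR1OV cells were also exposed, which bears on both EGR1OV comparisons. The study's paper lists H/R, the Egr1 plasmid and no treatment as alternatives for the groups, and its list names no H/R for EGR1OV. No group with an empty plasmid was labelled, so Egr1 and the transfection itself cannot be told apart, and no label says that the replicates came from separate cultures or mice. The p-values then measure only the spread between these libraries.

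DNA is copied at the replication fork by a helicase of MCM, GINS and CDC45 subunits, a primase that lays down short primers, and polymerases held on the template by the ring-shaped clamp PCNA. The RFC complex opens the clamp and places it, and RPA covers the exposed single strand. On the lagging strand, the nuclease FEN1 cuts flaps and the ligase LIG1 joins the pieces. Many of these genes are transcribed as cells enter S phase, under E2F factors. Adult tubular cells divide rarely in the kidney, but they re-enter the cell cycle after injury and in culture.

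Expression was given as FPKM, the fragments of a gene relative to its exon length and to the size of the library, and rested on 16183617 to 18384022 recovered reads. Egr1 levels were 6.20, 6.91 and 6.09 FPKM in Sham, 8.57, 7.59 and 7.48 in H/R, and 45.7, 42.2 and 40.1 in EGR1OV, which matched the label of the transfected libraries. The epithelial markers Cdh1, Epcam and Pax8 were found in all 9 libraries, but Umod, a marker of the thick ascending limb, was listed at 0 in each, and Slc34a1, a proximal tubule transporter, did not exceed 0.0362 FPKM. The tubule markers Lrp2 and Aqp1 were found in every library. Lrp2 was at 3.51 to 3.67 FPKM in Sham, 3.38 to 3.50 in H/R and 1.19 to 1.28 in EGR1OV. Aqp1 was at 1.23 to 1.43, 1.08 to 1.29 and 0.275 to 0.489. The summed FPKM of 10 tubule markers was 1880 to 1920 in Sham, 1740 to 1820 in H/R and 1210 to 1320 in EGR1OV, most of it the keratins Krt8 (means 1014, 941 and 618) and Krt18 (685, 606 and 412). The markers did not move as one, since of the 8 tested against Sham 4 were called lower and 1, Epcam, higher in EGR1OV (75.4 to 77.1 FPKM in Sham, 97.2 to 105.5 in EGR1OV), and in H/R Epcam was the 1 call (94.6 to 97.1). For 10 leukocyte markers the sum was 145 to 150, 122 to 128 and 39.3 to 46.4, led by Lyz2 and C1qa in Sham and H/R and by Cd14 in EGR1OV. Of the 8 tested, 2 were lower in H/R, and in EGR1OV 7 were lower and Cd14 was higher (16.1 to 19.8 FPKM against 4.76 to 5.82). The 7 fibroblast and stroma markers summed to 2910 to 3020, 2650 to 2850 and 1140 to 1210, nearly all of it Acta2. Dcn was at most 0.0916, but the collagen genes Col1a1 and Col1a2 were present (21.1 ± 0.790 and 7.22 ± 0.320 in Sham) and were the 2 of 5 tested that were called, as higher, in H/R. In EGR1OV, Col1a2 was higher than in Sham (log2 0.45) and Acta2 lower. The 5 endothelial markers summed to 9.21 to 9.67, 9.41 to 9.77 and 6.52 to 7.18. In bulk RNA, fewer cells of a type and less RNA per cell cannot be told apart. EGR1OV also carried a strong interferon response, with 10 of 10 interferon genes higher than in Sham (median log2 difference 6.50), where H/R had 0 calls. The part of these shifts in the results that follow was not tested.

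Among the Sham cultures, Rrm2, the regulatory subunit of ribonucleotide reductase, and Pcna were the highest of the 36 genes, at 30.2 ± 0.879 and 29.2 ± 1.86 FPKM (SD, n = 3). The table places Pcna at chr2:132249162-132253314 (minus strand), Rrm2 at chr12:24708241-24714146 (plus) and Pold1 at chr7:44532746-44548849 (minus), positions equal to those of GENCODE M21 (GRCm38). Rrm1, the catalytic partner of Rrm2, was at 9.42 ± 0.203. The 3 RPA subunits were unequal, with Rpa1 at 11.0 ± 0.396, Rpa3 at 9.27 ± 0.958 and Rpa2 at 3.78 ± 0.298. The GINS complex holds its subunits in equal number. Gins4 stood at 13.4 ± 1.84 FPKM and the others at 1.85 (Gins3) to 3.18 (Gins1). Such rankings between genes depend on the exon length by which FPKM divides. In Sham replicate 1, Rrm1 had 1679 recovered reads over 11012 exon bases and Rrm2 had 1353 over 2771. Gins4 had 257 over 1349 there, and Gins2 had 193 over 4097. The lowest genes were the polymerase epsilon subunit Pole2 (1.18 ± 0.179), the exonuclease Exo1 (0.962 ± 0.0704), the recombination mediator Brca2 (0.665 ± 0.0758) and Fen1 (0.212 ± 0.0628). Fen1 was 0.176, 0.284 and 0.175 FPKM in Sham, 0.306, 0.225 and 0.0698 in H/R, and 0.448, 0.278 and 0.442 in EGR1OV. It was below the filter of 0.5 FPKM on the mean of all libraries, rested on as few as 3 reads and was not tested, which left 35 members. Of the 2422 exon bases of Fen1, 84.2% also belong to exons of other genes, among them Tmem258, so its level here is uncertain. Fen1 was singled out after its values were seen.

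The promoters of the members were read for short words bound by E2F, NF-Y, Sp1 and EGR1 factors. RefSeq gives a start for 29 of the 36 members (GRCm38.p6), and windows of 250 bases before to 50 after the start were searched on both strands. For members the start nearest to the 5′ end in the deposited table was taken, and for the share over all genes the first one listed. Those 27025 genes include genes not tested here, so the members are not set against expressed genes alone. An E2F word (TTTCCCGC, TTTGGCGC, TTTCGCGC or TTTGCCGC) stood in 7 windows, 24.1%, against 2.32% of 27025 genes. The CCAAT box (CCAAT) stood in 58.6% against 37.9%, the GC box (GGGCGG) in 65.5% against 35.9%, and the EGR1 word (GCGNGGGCG, which can overlap a GC box) in 10.3% against 5.55%. The EGR1 word was in the windows of Rrm2, Chaf1b and Rfc1. The stretches of 4 members are given because they hold these words: the capitals mark an E2F word in Pola1 and Brca2 and an EGR1 word in Chaf1b and Rrm2, on either strand. Each run is read 5′ to 3′ on the gene's strand and stops before the transcript: Pola1 at chrX:93632156-93632355 (minus strand), Brca2 at chr5:150522421-150522620 (plus), Chaf1b at chr16:93883701-93883900 (plus) and Rrm2 at chr12:24708054-24708240 (plus). A second EGR1 word of Rrm2 lies past the start and is not shown.
Pola1: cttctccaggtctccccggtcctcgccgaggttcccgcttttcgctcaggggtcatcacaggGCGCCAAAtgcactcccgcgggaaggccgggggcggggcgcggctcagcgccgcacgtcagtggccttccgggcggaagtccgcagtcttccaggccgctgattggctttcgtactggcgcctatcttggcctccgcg
Brca2: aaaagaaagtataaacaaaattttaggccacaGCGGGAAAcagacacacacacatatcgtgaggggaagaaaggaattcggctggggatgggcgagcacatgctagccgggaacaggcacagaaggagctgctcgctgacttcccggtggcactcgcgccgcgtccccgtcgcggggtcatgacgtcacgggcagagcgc
Chaf1b: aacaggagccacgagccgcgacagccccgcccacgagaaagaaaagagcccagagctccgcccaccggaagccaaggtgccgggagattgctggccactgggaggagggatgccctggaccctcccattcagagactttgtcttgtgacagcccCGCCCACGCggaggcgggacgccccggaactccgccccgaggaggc
Rrm2: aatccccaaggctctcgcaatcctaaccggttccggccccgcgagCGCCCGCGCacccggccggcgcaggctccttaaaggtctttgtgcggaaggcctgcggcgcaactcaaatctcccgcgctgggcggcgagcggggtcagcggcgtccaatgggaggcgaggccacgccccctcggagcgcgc
Of the members with a window, 14 were called lower in H/R in the comparison that follows, and 2 of these held an E2F word (Pola1 and Pold1). Another 14 were tested and not called, and 5 of these held one (Rfc3, Pole2, Gins3, Brca2 and Msh6). This split depends on how calls were made and was not tested. In limma voom, an alternative fit on recovered reads, Rfc3 (adjusted p = 0.0235) and Brca2 (adjusted p = 0.0119) were called lower. Pole2, Gins3 and Msh6 were not. Voom also called Rfc5, Tyms and Brca1 lower, which held no E2F word. A match is a run of letters and does not show that a factor bound there.

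H/R was compared with Sham to ask whether DNA synthesis genes differ after hypoxia and reoxygenation. Of the 35 members tested, 20 fell and none rose. Over all 13985 genes tested, 2.65% were called lower and 1.60% higher. A call required an adjusted p from limma under 0.05 together with 1.2-fold or more on FPKM + 1. The median log2 difference of the members was -0.28, against -0.03 over all genes, and single members ran from -0.46 to 0.07. In 29 members every H/R library lay below every Sham library, where 21.8% of all genes did, and in 0 members every H/R library lay above, where 11.8% did. The median over members, relative to the Sham mean, was -0.03, 0.00 and 0.02 in the Sham libraries, -0.27, -0.29 and -0.32 in the H/R libraries, and -0.01, -0.04 and 0.04 in the EGR1OV libraries. The H/R libraries stood apart as a group, and the EGR1OV libraries lay in and around the Sham range.

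**Figure D1:**
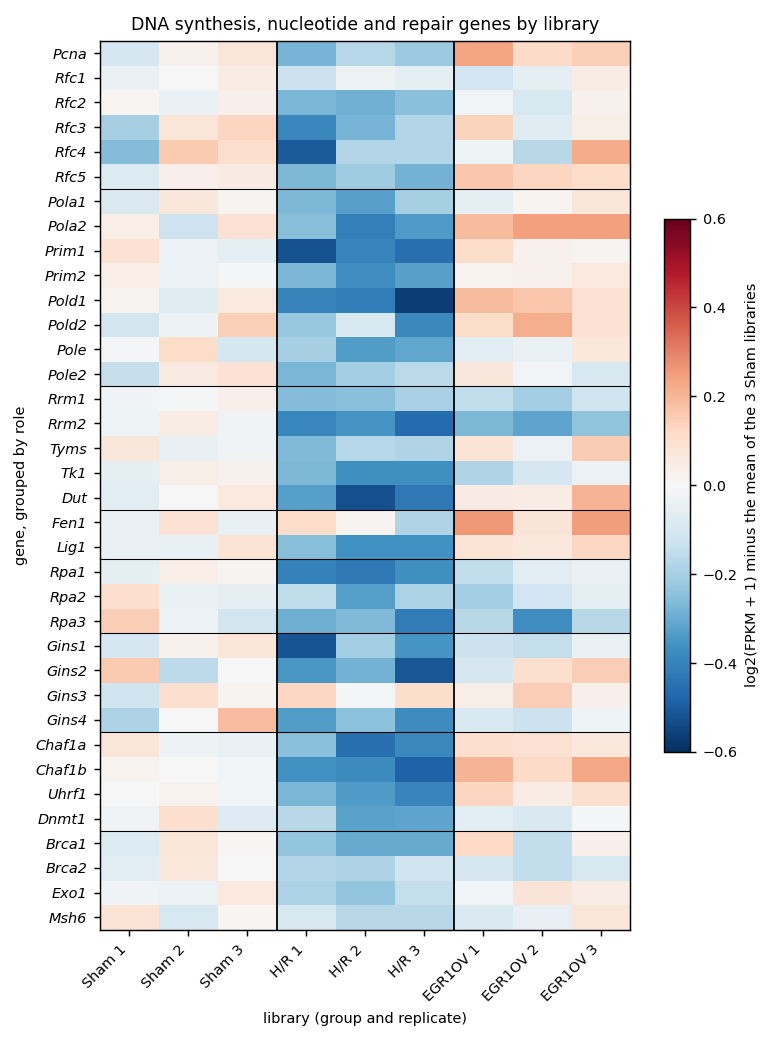
Heat map of the 36 genes (rows, grouped by role) in the 9 libraries (columns), colored by log2(FPKM + 1) minus the mean of the 3 Sham libraries. The 3 H/R columns are blue for nearly every gene, whereas Rfc1 and Gins3 are pale and Fen1, which was not tested, is not blue in H/R replicates 1 and 2.

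Of the 8 polymerase and primase genes, 6 fell, and the median log2 difference was -0.30. Pold1, the catalytic subunit of polymerase delta, was 4.76, 4.41 and 4.94 FPKM in Sham and 3.32, 3.27 and 2.85 in H/R, without overlap. Its log2 difference was -0.46 (SE 0.0589, adjusted p = 0.00235), and its mean FPKM dropped by 33.1%. Prim1, the catalytic subunit of primase, was 3.51, 3.14 and 3.09 in Sham and 1.95, 2.22 and 2.10 in H/R, and its log2 difference was -0.46 (SE 0.0591, adjusted p = 0.0024). The primase partner Prim2 fell from 2.59 ± 0.0917 to 1.87 ± 0.0994 FPKM. Polymerase alpha fell in both subunits, with Pola2 at 5.74, 5.01 and 5.97 against 4.50, 3.94 and 4.18 and Pola1 at a log2 difference of -0.26 (adjusted p = 0.0347). Pole, the leading-strand polymerase, was also lower (log2 -0.28, adjusted p = 0.0388). The accessory subunits Pold2 (-0.24, adjusted p = 0.104) and Pole2 (-0.21, adjusted p = 0.13) did not pass, and the Pold2 libraries overlapped.

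Nucleotide supply fell in 3 of 5 genes. Dut, the dUTPase that keeps uracil out of DNA, was 8.88, 9.35 and 9.75 FPKM in Sham and 7.20, 6.16 and 6.67 in H/R (log2 -0.43, SE 0.0631, adjusted p = 0.00432). Rrm2 was 29.7, 31.3 and 29.8 in Sham and 22.8, 23.5 and 21.7 in H/R (log2 -0.40, SE 0.037, adjusted p = 0.000494), the smallest adjusted p of the 35. Tk1, the thymidine kinase of the salvage route, fell from 4.17 ± 0.185 to 3.10 ± 0.160 FPKM. Rrm1 was 9.27, 9.33 and 9.65 against 7.69, 7.77 and 8.10, with an adjusted p of 0.00595, but at a log2 difference of -0.23 it stayed under the fold threshold. Tyms, which makes thymidylate, was 2.78 ± 0.159 in Sham and 2.27 ± 0.116 in H/R (adjusted p = 0.0682), with no overlap between the libraries. Rrm2, Rrm1 and Rpa3 are given per library because of their values in EGR1OV, a choice made after those were seen.

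All 4 chromatin assembly and DNA methylation genes fell (median log2 -0.35). Chaf1b, a subunit of the histone chaperone CAF-1, was 2.71, 2.68 and 2.63 FPKM in Sham and 1.85, 1.82 and 1.62 in H/R (log2 -0.41, SE 0.0552, adjusted p = 0.00276). Its partner Chaf1a was at -0.36 (adjusted p = 0.0058). Uhrf1, which recognizes half-methylated DNA, fell from 9.96 ± 0.139 to 7.67 ± 0.366 FPKM, and the maintenance methyltransferase Dnmt1 from 11.0 ± 0.765 to 8.97 ± 0.613. Of the exon bases of Chaf1a, 52.5% are shared with Ubxn6, and since strand was not stated for the counting, reads of such overlapping genes cannot be told apart.

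The ligase Lig1 fell from 5.50 ± 0.330 to 4.18 ± 0.221 FPKM (log2 -0.33, adjusted p = 0.00531). Of the RPA subunits, Rpa1 fell from 11.0 ± 0.396 to 8.07 ± 0.195 FPKM (log2 -0.40, SE 0.0415, adjusted p = 0.000832). Rpa3 was 10.3, 8.99 and 8.48 in Sham and 7.34, 7.52 and 6.65 in H/R (log2 -0.33, adjusted p = 0.0333). Rpa2 was at -0.22 (adjusted p = 0.0681). The GINS genes split. Gins1 (-0.36, adjusted p = 0.0266), Gins2 (-0.38, adjusted p = 0.0402) and Gins4 (-0.32, adjusted p = 0.0381) were called lower. Gins3 was 1.62, 2.05 and 1.88 in Sham and 2.10, 1.83 and 2.06 in H/R, with a log2 difference of 0.07 (95% interval -0.09 to 0.24), so the groups overlapped and the only positive sign among the 35 was within the error. Gins2 shares 67.3% of its exon bases with Gse1.

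The clamp and its loader gave 1 call in 6, although every sign was negative. Pcna was 27.2, 29.7 and 30.8 FPKM in Sham and 23.9, 25.8 and 25.0 in H/R. The libraries did not overlap and the adjusted p was 0.0268, but the log2 difference of -0.22 (95% interval -0.34 to -0.11) was under the fold threshold. Rfc5 was in the same position (-0.26, adjusted p = 0.0143), and Rfc2 was the loader subunit that was called (-0.27, adjusted p = 0.00746). Exons of other genes overlap 15.1% of the exon bases of Rfc2, 12.7% of Rfc4 and 10.7% of Rfc5. Rfc3 (-0.28, adjusted p = 0.0893) and Rfc4 (-0.28, adjusted p = 0.225) had differences of like size with more spread. Rfc4 was 2.85, 4.15 and 3.95 in Sham against 2.26, 3.08 and 3.09, and its first Sham library lay within the H/R range. Rfc1, the large subunit, was 7.44, 7.66 and 7.95 against 6.95, 7.51 and 7.32 (log2 -0.07, 95% interval -0.18 to 0.04), and the groups overlapped.

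None of the 4 repair genes was called. Brca1, a recombination factor, was 1.47, 1.75 and 1.63 FPKM in Sham and 1.22, 1.12 and 1.12 in H/R (log2 -0.28, adjusted p = 0.0543). Exo1 (-0.19, adjusted p = 0.104), Brca2 (-0.16, adjusted p = 0.184) and the mismatch recognition gene Msh6 (-0.14, adjusted p = 0.131) gave smaller values. The scale of FPKM + 1 understates changes at low levels. The ratio of mean FPKM in H/R to that in Sham was 0.712 for Brca1, 0.748 for Exo1 and 0.733 for Brca2, beside 0.735 for Rpa1, which was called at a higher level. In limma voom on the recovered reads, an alternative that works on reads in place of FPKM + 1, 26 members were called lower, and 3 of the 4 repair genes were among them (Brca1 at an adjusted p of 0.00327, Brca2 at 0.0119 and Exo1 at 0.0201).

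**Figure D2:**
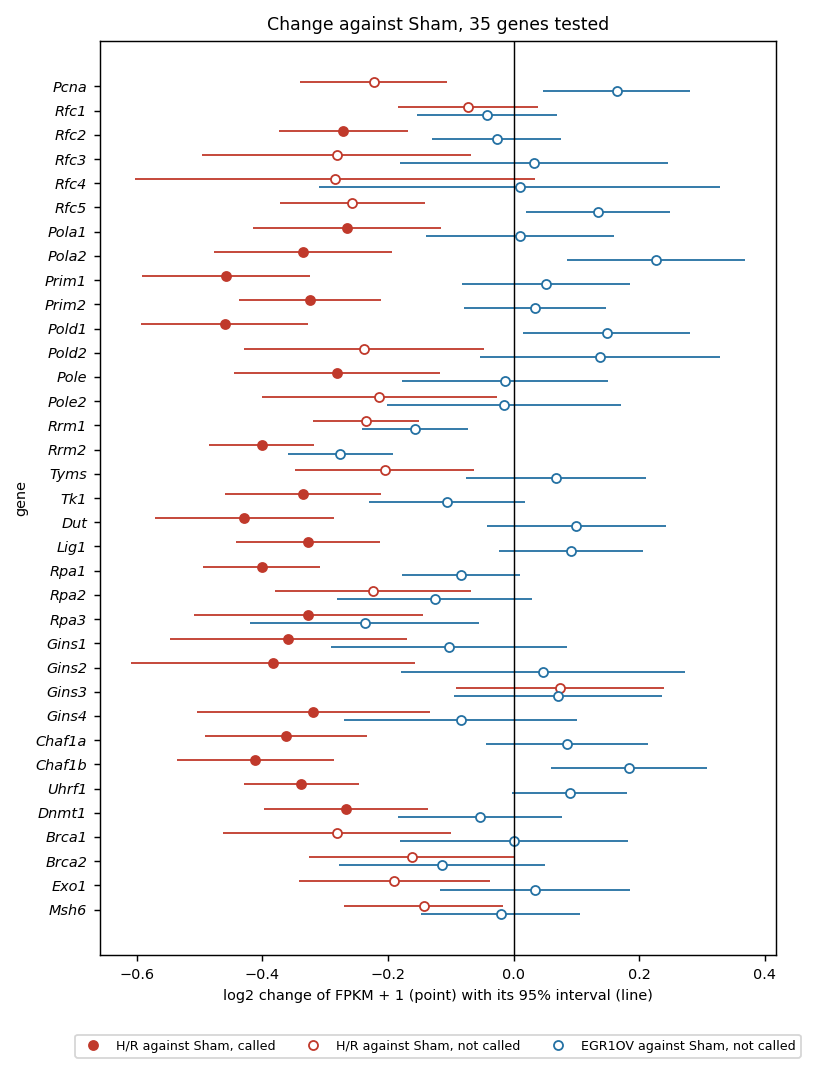
Log2 change of FPKM + 1 against Sham (x axis) for the 35 genes tested (y axis), with 95% intervals from the limma fit. Red is H/R (filled where called) and blue is EGR1OV, and the red points lie left of 0 for every gene but Gins3 whereas the blue points lie on both sides, from -0.28 (Rrm2) to 0.23 (Pola2).

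Each called gene was checked under 21 other settings of the fit. A fold threshold that is lowered or left out can only add calls, and the 1.2-fold setting is the main one for H/R. Those settings could not remove a call or change a sign. No called member changed sign under any of them, and 12 of the 20 were called under every setting in which they were tested: Pola2, Prim1, Prim2, Pold1, Rrm2, Tk1, Dut, Lig1, Rpa1, Chaf1a, Chaf1b and Uhrf1. Gins4 was not called under 14 settings, and Pola1, Pole and Gins2 were each not called under 11. Leaving out H/R replicate 3 brought the count down to 13, and scaling by median ratios gave 13 as well.

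EGR1OV was compared with Sham, from which it differs in its labels by the Egr1 plasmid. None of the 35 members met limma's threshold together with 1.3-fold or more, where 6.51% of all genes were called lower and 9.87% higher. Without adjustment, 5 members were higher and 3 lower at a p under 0.05, and limma voom called 0. The median log2 difference was 0.01, against 0.02 over all genes. For 34 of the 35 members the 95% interval lay within 1.3-fold in either direction, and the exception was Rpa3 (-0.42 to -0.06). That count holds for FPKM + 1, a scale that understates changes at low levels. In voom, low genes had wider errors, such as Pole2 (log2 -0.03, SE 0.181, beside 0.0825 on FPKM + 1) and Brca2 (-0.30, SE 0.119, beside 0.0726). Every EGR1OV library lay above every Sham library in 6 members, where 31.0% of all genes did, and below in 4 members, where 24.6% did.

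Small differences ran in both directions. At an adjusted p under 0.05 and under the fold threshold, Pola2, Chaf1b and Pcna were higher and Rrm2, Rrm1 and Rpa3 were lower. Pola2 was 6.48, 6.77 and 6.79 FPKM in EGR1OV, above the 5.01 to 5.97 of Sham (log2 0.23, 95% interval 0.09 to 0.37, adjusted p = 0.0152). Chaf1b was 3.24, 2.97 and 3.32, above all Sham libraries (log2 0.18, adjusted p = 0.0224), and Pcna was 34.6, 31.7 and 32.3, also above them (log2 0.16, adjusted p = 0.0282). Rfc5 (0.13, adjusted p = 0.0572), Pold1 (0.15, adjusted p = 0.0669) and Uhrf1 (0.09, adjusted p = 0.101) were likewise above all Sham libraries but did not pass the adjusted p.

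The lower members were both subunits of ribonucleotide reductase and the small subunit of RPA. Rrm2 was 24.9, 24.1 and 25.4 FPKM in EGR1OV, below the 29.7 to 31.3 of Sham (log2 -0.28, 95% interval -0.36 to -0.19, adjusted p = 0.000248). Rrm1 was 8.41, 8.03 and 8.59, below the 9.27 to 9.65 of Sham (log2 -0.16, 95% interval -0.24 to -0.07, adjusted p = 0.00725). Rpa3 was 8.11, 6.89 and 8.11, below the 8.48 to 10.3 of Sham (log2 -0.24, adjusted p = 0.0378). With a threshold of 1.2-fold, chosen after the data were seen, Rrm2 would be called lower and no other member would be called. Brca2 was below all Sham libraries with an adjusted p of 0.232. The members nearest to Sham were Brca1, at 1.83, 1.36 and 1.67 (log2 0.00080, 95% interval -0.18 to 0.18), and Rfc4, at 3.53, 3.11 and 4.38 (log2 0.0095, 95% interval -0.31 to 0.33).

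The other members, with log2 differences from -0.13 (Rpa2) to 0.14 (Pold2), overlapped with Sham and did not pass. By role, the medians were 0.02 for the clamp and its loader, 0.04 for the polymerases and primase, -0.11 for nucleotide supply, -0.13 for RPA, -0.02 for GINS, 0.09 for chromatin assembly and methylation and -0.01 for repair. These medians were not tested.

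**Figure D3:**
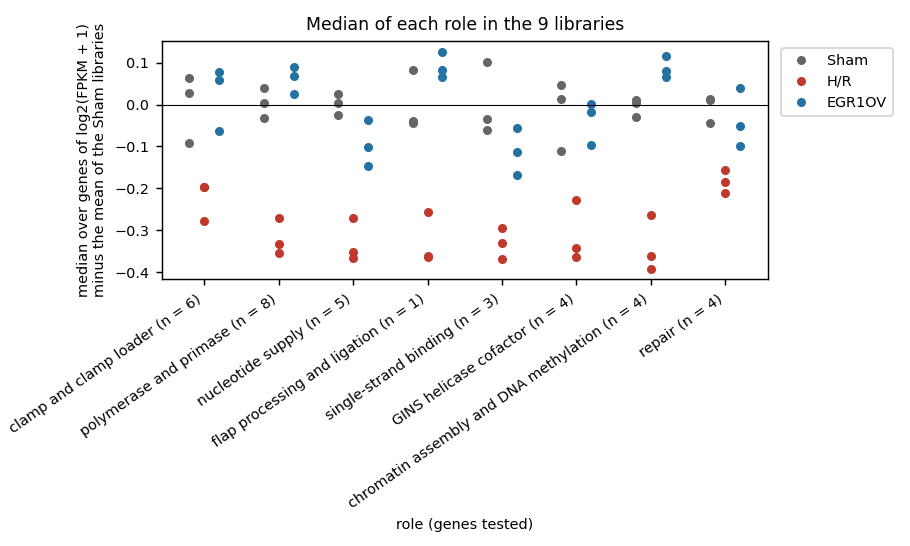
Median over the genes of each role (x axis, with the number of genes tested) of log2(FPKM + 1) minus the Sham mean (y axis), with a point per library in gray (Sham), red (H/R) and blue (EGR1OV). The red points lie below the gray points in all 8 roles, and the blue points of nucleotide supply and single-strand binding lie lower than those of chromatin assembly.

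By their labels, EGR1OV and H/R differ in both the plasmid and the H/R treatment, and the share of each in a difference between them cannot be told apart. The paper's list of groups names only the plasmid for EGR1OV. Had those cells been exposed to H/R as well, which the labels leave unstated, the plasmid and its transfection would be the difference. This comparison shares the H/R libraries with the first comparison, and its values are given beside those of Sham for that reason. EGR1OV was higher in 11 of the 35 members and lower in none, against 11.9% and 6.94% of all genes. The call again needed a 1.3-fold change, and 19 members passed at 1.2-fold. The median log2 difference was 0.28, against 0.05 over all genes. Every EGR1OV library lay above every H/R library in 29 members, where 36.6% of all genes did, and below in 0 members, where 22.0% did.

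Pold1 had the largest difference, with 5.49, 5.39 and 5.08 FPKM in EGR1OV against 2.85 to 3.32 in H/R and 4.41 to 4.94 in Sham (log2 0.61 against H/R, SE 0.0589, adjusted p = 2.64e-05). Chaf1b was next (log2 0.60, SE 0.0552, adjusted p = 1.98e-05), and its mean FPKM was 1.80 times that of H/R. Pola2 was higher by 0.56 (SE 0.0627, adjusted p = 6.78e-05), with EGR1OV above both other groups. Dut was 9.69, 9.65 and 10.9 FPKM, above the 6.16 to 7.20 of H/R and overlapping with Sham (log2 0.53, adjusted p = 0.000103). The other 7 called members were Prim1 (0.51), Chaf1a (0.45), Gins2 (0.43), Uhrf1 (0.43), Lig1 (0.42), Rfc5 (0.39) and Pcna (0.39). Of the 11, Pola2, Prim1, Pold1, Dut and Chaf1b were called under every setting in which they were tested, and Pcna, Rfc5, Lig1 and Uhrf1 were not called under median-ratio scaling, which left 7, and quantile normalization left 5.

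The members lower in EGR1OV than in Sham were not called against H/R. Rrm2 differed from H/R by 0.12 (95% interval 0.04 to 0.21, adjusted p = 0.0191), Rrm1 by 0.08 (-0.01 to 0.16, adjusted p = 0.113) and Rpa3 by 0.09 (-0.09 to 0.27, adjusted p = 0.388). The Rrm1 and Rpa3 libraries of EGR1OV and H/R overlapped. Rfc1, at 7.02, 7.36 and 7.94 in EGR1OV, and Gins3, at 1.91, 2.15 and 1.91, differed least from H/R (log2 0.03 and -0.0031). Both genes overlapped between all 3 groups. The remaining members lay between 0.05 (Brca2) and 0.38 (Pold2). Of these, Rpa1 (0.32, adjusted p = 0.000185) and Prim2 (0.36, adjusted p = 0.000283) had the smallest adjusted p and were under the fold threshold on FPKM + 1. The ratio of mean FPKM was 1.28 for Rpa1, 1.43 for Prim2, 1.41 for Brca1 and 1.40 for Exo1. Limma voom called 18 members higher, among them Prim2 (adjusted p = 1.58e-05), Brca1 (0.000628) and Exo1 (0.00147), but not Rpa1.

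**Figure D4:**
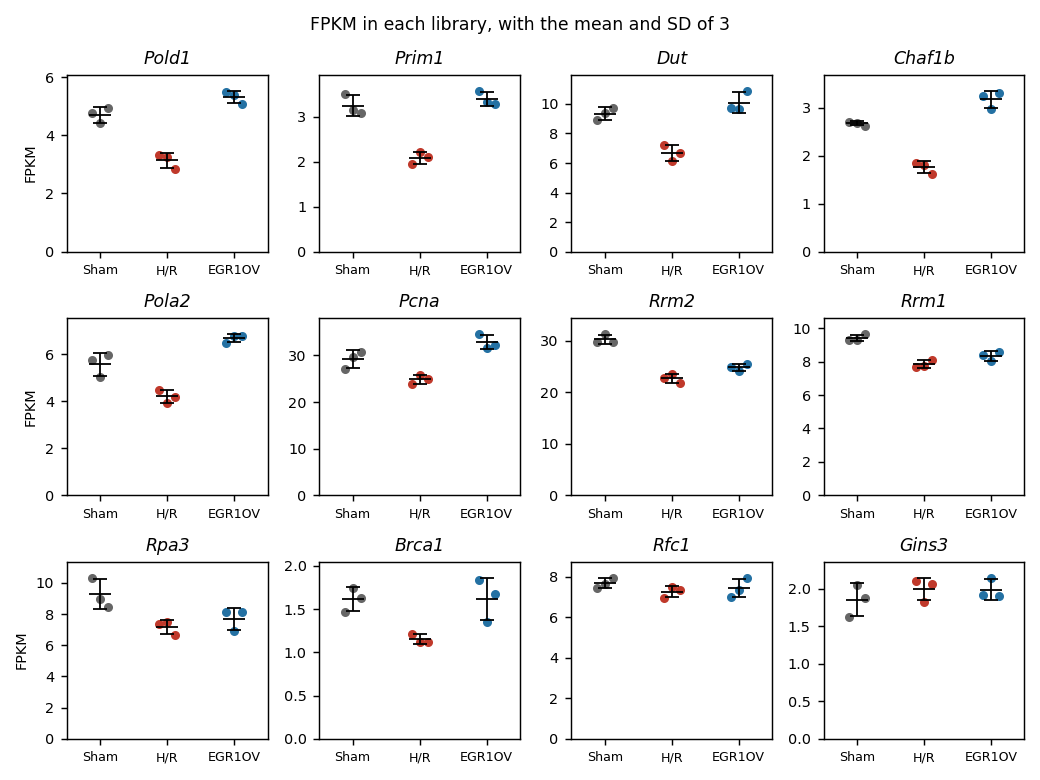
FPKM (y axis, from 0) of 12 genes in each library of the 3 groups (x axis), with the mean and SD of 3 as bars. Pold1, Prim1, Dut and Chaf1b dip in H/R and are at or above Sham in EGR1OV, Rrm2 and Rrm1 are below Sham in both, and Rfc1 and Gins3 overlap in all groups.

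Neighboring pathways, from lists of genes that are not members, gave smaller shares of calls in H/R except for the helicase. Over all genes, 2.65% were called lower in H/R than in Sham. In EGR1OV, 9.87% were called higher and 6.51% lower than in Sham, and 11.9% higher than in H/R. Of the 6 subunits of the MCM2-7 helicase, which unwinds the template, 5 were lower in H/R (median log2 -0.39), led by Mcm5 (-0.58), Mcm2 (-0.49), Mcm3 (-0.45) and Mcm4 (-0.33). In EGR1OV, Mcm6 was higher than in Sham (0.69) and 4 subunits were higher than in H/R. Of 22 other replisome and fork genes, 4 were lower in H/R, namely Clspn (-0.49), Pclaf (-0.43), Donson (-0.32) and Tipin (-0.30). Pole4 was the gene of that list called in EGR1OV against Sham (0.46), and against H/R 4 were higher. Of 14 E2F and checkpoint genes, 5 were lower in H/R, among them E2f1 (-0.56), Ccne1 (-0.47) and Chek1 (-0.44). In EGR1OV, Atm, the kinase that responds to double-strand breaks, was higher than in Sham (0.53), and 4 genes were higher than in H/R.

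Of 32 other nucleotide synthesis genes, 3 were lower in H/R, among them Dck (-0.40) and Mthfd2 (-0.35). In EGR1OV against Sham the same list had 3 lower (Mthfd2 at -0.48, Cmpk1 at -0.38 and Dck at -0.38) and 2 higher. The higher ones were Samhd1, a dNTP hydrolase that is also an interferon-induced restriction factor, at 21.3 FPKM against 8.71, and Upp1, a uridine phosphorylase (0.70). Against H/R, 4 of the 32 were higher and 1 lower, beside 11.9% and 6.94% of all genes. The list medians in H/R and EGR1OV against Sham were -0.09 and -0.02.

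Of 20 other mismatch and base excision repair genes, Neil1 (-0.34) and Nthl1 (-0.27) were lower in H/R (2.65% of all genes were), none was called in EGR1OV against Sham, and 2 were higher in EGR1OV than in H/R. Of 28 other homologous recombination and Fanconi genes, 2 were lower in H/R, among them Fanca (-0.36), none was called in EGR1OV against Sham, and 4 were higher than in H/R. No end joining gene of 8 was called in any comparison, and a list of 8 is too short to set this apart from the shares over all genes. Of 11 other chromatin assembly and methylation genes, Asf1b (-0.37) and Hells (-0.34) were lower in H/R, none was called in EGR1OV against Sham and Asf1b was higher than in H/R (0.40). All of these are log2 differences of FPKM + 1 from the same limma fit. The counts higher than in H/R in the repair, recombination and chromatin lists lay near the 11.9% of all genes and are not read as a result about these pathways.

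**Figure D5:**
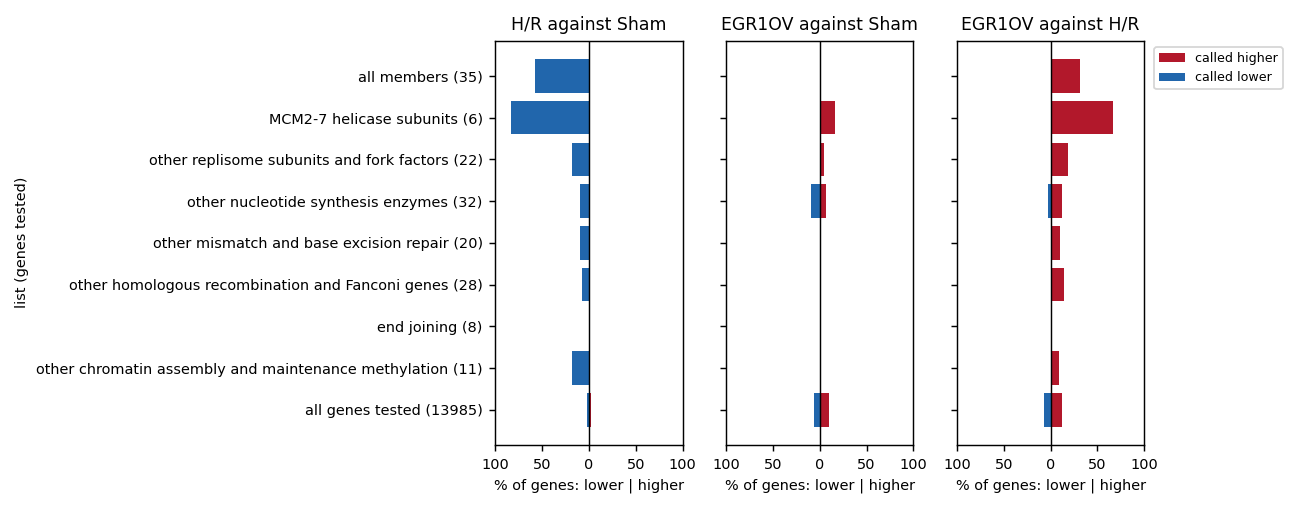
Share of the genes tested in each list (rows, number tested in brackets) that were called lower (blue, to the left) or higher (red, to the right) in each comparison, in percent. The 35 members have 20 lower calls in H/R against Sham, 0 calls in EGR1OV against Sham and 11 higher calls in EGR1OV against H/R, and the end joining row is empty in all panels.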

How the data were processed

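The deposited table holds FPKM for each gene in each library, and the authors did not pool replicates. The submitters' processing notes name HISAT2 (2.1.0), Bowtie2 (2.2.3), TopHat2 and mm9, without their roles. The counter, annotation and strand setting are not given in the sources used here. Of the gene identifiers, 99.8% are in GENCODE M21 (GRCm38), and 94.8% of those have its positions, 33 of the 36 members included. With exon lengths from M21, the FPKM steps gave the reads behind each value: of 162883 values of 1 to 1000 reads, 94.0% came out whole at a tolerance of 0.02. Depth was 16183617 to 18384022 reads. No library pair was identical.

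Groups were taken from the sample titles. Values were tested as log2(FPKM + 1), a scale that understates changes of low genes. The 13985 genes averaging 0.5 FPKM or more entered a joint limma fit of the 9 libraries (version 3.58.1 in R 4.3.3, with the trend option of eBayes). Tests were two-sided and p-values were adjusted by Benjamini-Hochberg over all of these genes. Every adjusted p is from it unless voom is named. Calls needed an adjusted p under 0.05 and 1.2-fold (H/R against Sham) or 1.3-fold (both EGR1OV comparisons). Promoters and figures were handled in Python 3.11.15 (pandas 2.3.3, matplotlib 3.10.9), and the fit was tested on simulated data.

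The members, gene lists and tests were chosen with earlier results of these data known. Every member was named. Values per library were given for Pcna, for the 4 largest calls and the 2 smallest differences of each comparison, and for Rrm2, Rrm1, Rpa3 and Fen1, which were added after their values were seen. Up to 4 of the largest calls were named from other lists, and some genes that this rule picks are not reported here. The alternatives were another pseudocount, other filters on low values, median-ratio and quantile scaling, a replicate block, no trend, only the groups compared, no fold threshold, voom on the recovered reads and each library left out. A 1.2-fold threshold in every comparison and protein-coding genes alone were added after the data were seen.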

Additional observations from a re-analysis of the deposited data

How the results depend on the processing

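The count of members lower in H/R than in Sham was 20, and it was 13 with no filter on low values, 13 under median-ratio scaling and 10 with a mean of at least 5 FPKM (15 members tested). It ran from 13 (without H/R replicate 3) to 19 with a library left out. The median log2 difference, -0.28, was -0.38 at a pseudocount of 0.1, -0.33 at 5 FPKM, -0.26 under median-ratio scaling, -0.25 under quantile normalization and -0.41 under voom, and -0.31 to -0.25 with a library left out. For EGR1OV against Sham, no fold threshold gave 6 calls (3 lower and 3 higher) and 1.2-fold gave 1 (lower), and the median of 0.01 turned to -0.045 under quantile normalization, which moved the median of all genes from 0.02 to -0.05. The members' median was also below 0 under median-ratio scaling (-0.0098), at 5 FPKM (-0.02), without Sham replicate 1 (-0.02) and without EGR1OV replicate 3 (-0.0036), so its sign is not settled. For EGR1OV against H/R, the 11 higher members became 18 at a pseudocount of 0.1, 6 at 5 FPKM, 7 under median-ratio scaling, 5 under quantile normalization, 26 with no fold threshold, 18 under voom and 19 at 1.2-fold. With a library left out they were 9 to 12. The median, 0.28, was 0.38, 0.32, 0.23, 0.18 and 0.39 under the pseudocount, 5 FPKM, median-ratio, quantile and voom settings, and 0.24 to 0.31 with a library left out. Over all genes that median moved from 0.05 to 0.00040 under median-ratio scaling and to -0.04 under quantile normalization, and the members' median stood above it by 0.22, 0.23 and 0.22. Apart from what a setting does by its construction, the cause of these shifts was not tested. With a replicate block, 16 members were lower in H/R, 0 were called in EGR1OV against Sham and 11 were higher in EGR1OV than in H/R. Replicate numbers were shared between groups, and same-numbered libraries gave no clear sign of deviating together. Their r over genes was -0.195 to 0.263, where libraries of different numbers gave -0.222 to 0.179. With 3 libraries per group, these values cannot exclude that the numbers pair the samples. Pole2 (as few as 37 reads in a library) and Fen1 (3 reads) rested on the fewest reads.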
